A study of Mus musculus with 2 samples.

Results

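In a section of an EKP mouse tumour, 6040 cells carried keratin 8 RNA but almost no Epcam RNA, and they are described here. They were chosen by measured values. A cell had to hold 80 or more gene counts, 3 or more counts of Krt8, 0 or 1 count of Epcam, and no count of Ptprc, Cd68, Mpeg1, Pecam1 or Csf3r, which mark leukocytes, macrophages, endothelial cells and neutrophils. Of the 261111 EKP cells, 133173 held 80 or more counts, and the 6040 made up 4.54% of those (95% Clopper-Pearson interval 4.42 to 4.65). The levels of these 7 genes are therefore no result, and they were left out of every count of genes. A gene whose RNA goes with that of Epcam or Krt8 from cell to cell is moved by the same choice.

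Keratin 8 is an intermediate filament protein of simple epithelia, such as the lining of the stomach, and its RNA marks epithelial cells and carcinomas that derive from them. Epcam is an adhesion protein of the epithelial cell surface, and Cdh1 (E-cadherin) holds neighbouring epithelial cells together. In an epithelial to mesenchymal transition, transcription factors such as Snai1, Snai2 and Twist1 repress these junction genes, while genes of motile and matrix-degrading cells are switched on. Loss of E-cadherin is a hallmark of diffuse gastric cancer, in which tumour cells spread singly through the tissue.

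The study concerned lineage plasticity and immune remodelling driven by a mutant form of the cytoskeletal regulator RHOA. Its tumours came from mouse cells grown in culture, EKP for one group and RKP for the other. What the letters stand for, and which of them has mutant RHOA, is not stated in the labels. For each group, 3 × 1000000 cells in Matrigel were injected into both flanks of C57BL/6 mice 5 weeks old, and subcutaneous tumours labelled as diffuse gastric cancer were taken at similar volumes. Neither a treatment nor a further difference between the groups is named in the labels. The host animals are immunocompetent, and a section holds host stroma and immune cells beside injected cells. How many animals or tumours a section represents is not given.

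RNA was counted in place with Xenium, an assay that decodes single RNA molecules in a paraffin section and assigns them to segmented cells. The panel held 479 genes and 20 negative control probes. There was 1 section per line, so no test between conditions is possible, no p-value is given, and line, tumour and section cannot be told apart. Intervals are 95% and cover counting error alone. Levels are counts summed over the cells of a group and scaled to 1000000 gene counts (CPM). A ratio of 2-fold was used as a rule of size, not as a test. Levels of different genes were not compared with each other, because probes differ in efficiency. The 6040 cells held 1293507 gene counts, with a median of 197 counts per cell (quartiles 139 and 271) and 66 genes detected in the median cell. Their highest negative control probe had 7 counts. In all, 19 cell barcodes occurred in both sections, and 1 of the 6040 cells carried such a barcode.

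Groups of cells from the same files serve for comparison. The EKP Epcam-high cells numbered 37393, with 5 or more counts of both Epcam and Krt8 and a median of 275 counts. The EKP cells without Krt8 numbered 6303, with no Krt8 count, 0 or 1 Epcam count, none of the 5 excluded genes and a median of 147 counts. In the RKP section the same choice gave 7742 cells with a median of 168 counts, and the RKP Epcam-high cells numbered 60717 with a median of 260 counts. The RKP cells made up 3.84% of the 201447 RKP cells with 80 or more counts (3.76 to 3.93).

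Cells with Krt8 were not spread evenly over the range of Epcam. Of the 30943 EKP cells with 3 or more Krt8 counts and none of the 5 excluded genes, 5002 had no Epcam count, 1038 had 1, and 822 had 2. The number then rose again to a peak of 1324 cells at 8 Epcam counts. The cells with 0 or 1 count were 19.5% of these, and in the RKP section they were 17.8% of 43546 (17.4 to 18.1). Among the 6040 EKP cells, 82.8% had no Epcam count at all. No such gap was seen along Krt8: among cells with 0 or 1 Epcam count, 6303 had no Krt8 count, 2433 had 1, 1563 had 2, 1112 had 3 and 869 had 4.

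**Figure D1:**
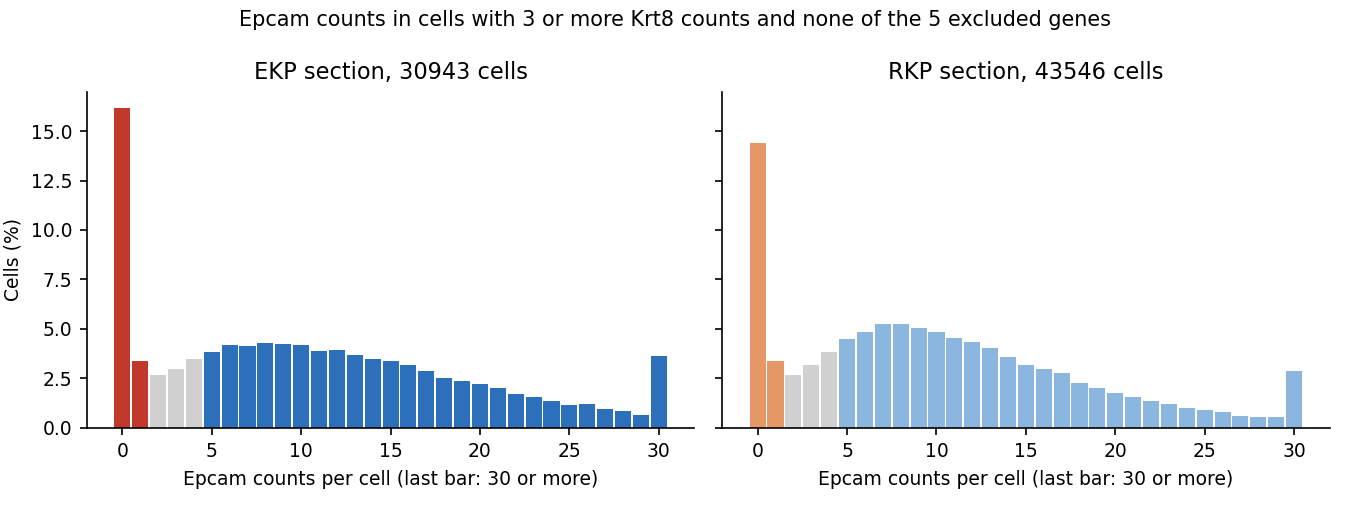
Share of cells (%, vertical axis) at each number of Epcam counts per cell (horizontal axis) among EKP cells (left) and RKP cells (right) with 3 or more Krt8 counts and none of the 5 excluded genes. The red and orange bars at 0 and 1 count are the Krt8-positive cells without Epcam (19.5% in EKP and 17.8% in RKP), grey bars are 2 to 4 counts and blue bars are 5 or more; both sections have a low point at 2 counts.

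Levels of S100a4 changed across both limits, and more across that for Epcam. S100a4 stood at 30861 CPM in cells with no Epcam count, 17809 CPM in cells with 1 count, and 7408 CPM in the 822 cells with 2 counts, just outside the limit. Cdh1 went the other way over the same cells, from 1419 to 3642 and 7697 CPM. On the Krt8 side, S100a4 stood at 17292 CPM in cells with 3 counts and at 13405 CPM in the 1563 cells with 2 counts, just outside. Cells left out for a count of the 5 excluded genes numbered 9745, and they held 21545 CPM of S100a4 and 1135 CPM of Lrp2. Snai2 stood at 777 and 853 CPM in cells with 1 and 2 Epcam counts and at 1259 and 1441 CPM in cells with 3 and 2 Krt8 counts, so it was not lower outside either limit. These are descriptions of where the limits cut.

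The 4 marker genes given for these cells beside Krt8 were S100a4 (ENSMUSG00000001020), Snai2 (ENSMUSG00000022676), Lrp2 (ENSMUSG00000027070) and Ptprn2 (ENSMUSG00000056553). They were named with earlier results of these data in view, so their levels are a description. S100a4, a calcium-binding protein of motile cells and fibroblasts, stood at 28706 CPM in the Krt8-positive cells without Epcam, 4037 CPM in Epcam-high cells and 4893 CPM in cells without Krt8. Snai2 stood at 911 CPM, 158 CPM and 1513 CPM in the same order, so it was above Epcam-high cells and below cells without Krt8. Lrp2, also called megalin, is an endocytic receptor best known from the kidney proximal tubule. Its levels were 1720 CPM, 8.91 CPM and 124 CPM. Ptprn2, a membrane protein of secretory granules in endocrine cells, stood at 827 CPM, 232 CPM and 38.0 CPM.

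Few cells held all 4 of these RNAs. Of the 6040 cells, 615 had a count of none of them (10.2%), 3013 of 1 (49.9%), 1816 of 2 (30.1%), 539 of 3 (8.92%) and 57 of all 4 (0.944%). None of the 4 had a count in 45.5% of Epcam-high cells and 49.7% of cells without Krt8. All 4 had a count in 0% and 0.0317% of those groups. S100a4 had a count in 88.0% of the 6040 cells. After each cell was thinned at random to 80 counts, to set depths equal, S100a4 had a count in 78.2% of the 6040 cells (77.2 to 79.3), 23.8% of Epcam-high cells and 27.2% of cells without Krt8. Lrp2 had a count in 11.4% (10.7 to 12.3), 0.0963% and 0.889% of thinned cells. Before thinning, the Lrp2 shares were 23.3%, 0.235% and 1.68%. Snai2 had a count in 5.80%, 1.13% and 9.82% of thinned cells, and Ptprn2 in 5.60%, 1.71% and 0.365%. S100a4 is thus the marker held by most of these cells, while Snai2, Lrp2 and Ptprn2 were each seen in a minority.

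**Figure D2:**
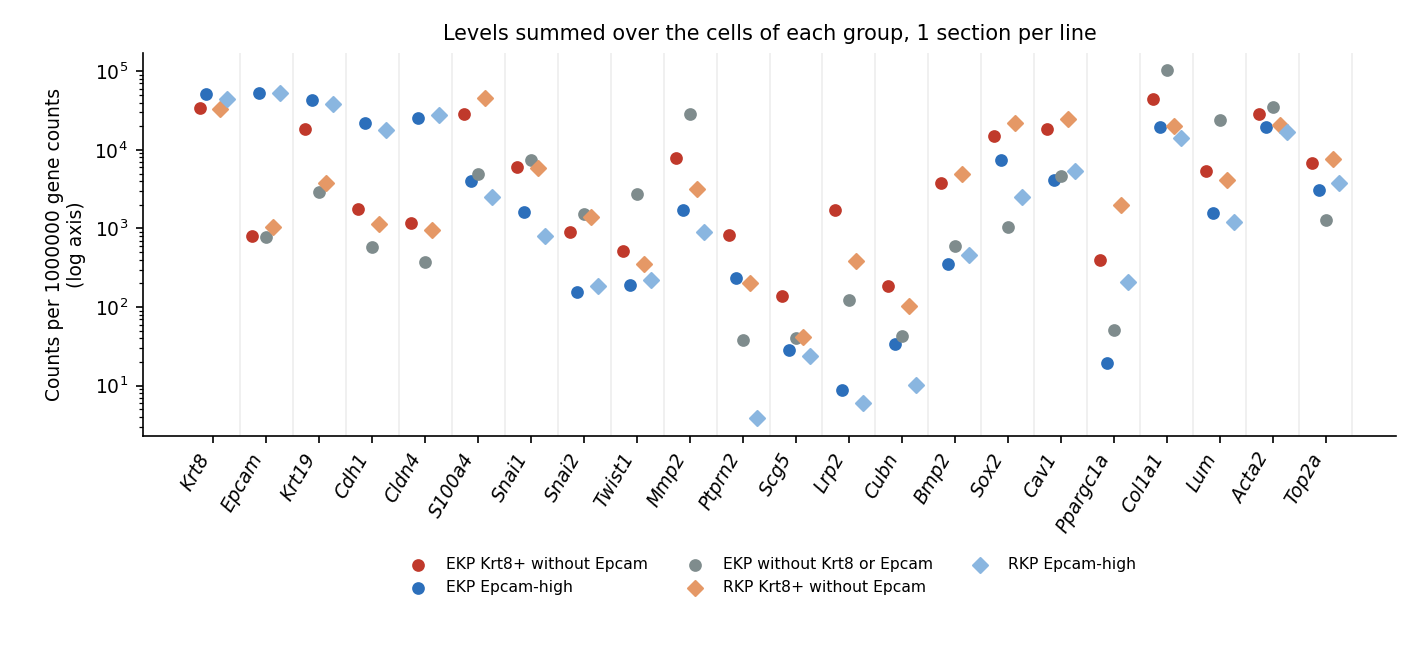
Levels of 22 genes (counts per 1000000 gene counts, log axis) summed over the cells of 5 groups, with 1 section per line and no error bars. Circles are EKP groups and diamonds are RKP groups. Lrp2 and Bmp2 stand highest in the Krt8-positive cells without Epcam of each line, Cdh1 and Cldn4 in the Epcam-high cells, and Col1a1 and Lum in the EKP cells without Krt8.

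Set against EKP Epcam-high cells, 461 genes outside the choice could be compared. At least 2-fold higher were 160 genes (34.7%) and at least 2-fold lower were 62 (13.4%), with a median log2 ratio of 0.67. This balance depended on the scaling, because the groups differ in total counts per cell. With counts per cell the split was 89 higher and 87 lower (median 0.24), and with a median-of-ratios scaling it was 48 higher and 103 lower (median 0.00). Log2 ratios below are from totals, and each should be read against that median of 0.67. Against EKP cells without Krt8, 116 of 468 genes were 2-fold higher (24.8%) and 121 were 2-fold lower (25.9%), with a median of 0.12. Those counts were 168 and 74 with counts per cell (median 0.48), and 104 and 129 with median of ratios (median 0.00).

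The epithelial programme was low relative to Epcam-high cells. Of the 13 epithelial genes compared, 12 were 2-fold lower than in Epcam-high cells and none was higher, with a median log2 ratio of -3.97 against 0.67 over all genes. The exception was Tspan8, a tetraspanin of gut epithelium, which was 1.57-fold lower and passed 2-fold with either of those other scalings. Against cells without Krt8, 10 of the 13 genes were 2-fold higher and none was lower, where 24.8% of all genes were higher. The median log2 ratio there was 1.70 against 0.12 over all genes. Those groups were set apart by Krt8 itself, so epithelial genes that go with Krt8 are moved by the choice. Cdh1 stood at 1786 CPM against 21968 CPM in Epcam-high cells, 12.3-fold lower (11.8 to 12.8). Among the claudins, which seal tight junctions, Cldn3, Cldn4 and Cldn7 were lower still. Cldn2 was lower by less than Cdh1, at 116 CPM against 1085 CPM, and Cldn11 stood higher, at 27.8 CPM against 13.9 CPM. Cldn4 stood at 1160 CPM against 25282 CPM, 21.8-fold lower (20.7 to 22.9), Cldn7 was 25.8-fold lower and Cldn3 17.3-fold lower. Prom1, a protein of apical membrane protrusions, showed the largest such ratio among genes at 200 CPM or more, at 206 CPM against 7248 CPM or 35.1-fold (31.1 to 39.7).

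Krt19, another keratin of simple epithelia, did not follow the junction genes. It stood at 18652 CPM against 43314 CPM in Epcam-high cells and 2896 CPM in cells without Krt8. That is 2.32-fold lower than the former (2.29 to 2.35) and 6.44-fold higher than the latter (6.20 to 6.69). After thinning, a Krt19 count was found in 65.2% of the cells, 94.2% of Epcam-high cells and 16.8% of cells without Krt8. A Cdh1 count was found in 12.5%, 79.3% and 4.47%. Krt19 was therefore nearer to its level in Epcam-high cells than the junction genes were to theirs. Genes of secreted or surface mucus ranged widely, with Muc4 23.8-fold and Muc20 15.7-fold lower than in Epcam-high cells. Muc1, a membrane mucin, stood at 1375 CPM against 10405 CPM.

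The mesenchymal transition genes were high relative to Epcam-high cells. Of 8 measured, 7 were 2-fold higher and none was lower, with a median of 1.70, and 4 of 8 were 2-fold higher with median of ratios. Over all 461 genes, 34.7% were 2-fold higher on totals and 48 genes with median of ratios. S100a4 was 7.11-fold higher (7.01 to 7.21) and Snai2 5.77-fold (5.35 to 6.22). Snai1, a repressor of Cdh1, stood at 6025 CPM against 1644 CPM, 3.66-fold higher (3.57 to 3.76). Twist1 stood at 524 CPM against 189 CPM, 2.78-fold higher (2.54 to 3.03). The matrix metalloproteases Mmp2 and Mmp9 were 4.60-fold and 2.62-fold higher. Cd44, a hyaluronan receptor, was the exception at 14972 CPM against 15185 CPM.

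Against cells without Krt8, only S100a4 of the same 8 genes was 2-fold higher, at 5.87-fold (5.70 to 6.04). With counts per cell Cd44 was 2-fold higher too. Snai1 stood at 6025 CPM in the Krt8-positive cells and 7459 CPM in cells without Krt8, and the order turned with counts per cell. Twist1 was 5.19-fold lower (4.77 to 5.65) and Mmp2 3.69-fold lower than in cells without Krt8. Snai2, Twist1, Mmp2 and Mmp9 thus stood higher in the cells that carry no Krt8, which are rich in Col1a1 and Lum.

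Markers of fibroblasts moved with these genes. Of 8 fibroblast genes, 7 were 2-fold higher than in Epcam-high cells (4 with median of ratios) and 7 were 2-fold lower than in cells without Krt8 (6 with counts per cell), where all genes gave 34.7% and 25.9%. The summed level of the list was 54448 CPM in the Krt8-positive cells without Epcam, 22232 CPM in Epcam-high cells and 154963 CPM in cells without Krt8. Col1a1, the main collagen of connective tissue, stood at 43966 CPM, 19426 CPM and 103080 CPM, and Lum at 5453 CPM, 1557 CPM and 23932 CPM. Dpt and Pi16, which mark resident fibroblasts, stood at 262 CPM and 116 CPM against 6028 CPM and 2581 CPM in cells without Krt8. Segmentation can give a cell transcripts of its neighbours, and the part of neighbouring fibroblasts in the higher transition genes was not tested. Snai2, Twist1, Mmp2 and Mmp9 followed the order of Lum over the 3 groups. Snai1 did so on totals but not with counts per cell, and S100a4, Lrp2 and Ptprn2 did not.

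Lists of the other cell types were summed in the same way. The smooth muscle and pericyte list summed to 49021 CPM against 27513 CPM in Epcam-high cells and 70857 CPM in cells without Krt8, with 3 of 7 genes 2-fold higher than in Epcam-high cells, against 34.7% of all genes, and none with median of ratios. The endothelial list without Pecam1 summed to 22598 CPM, 6235 CPM and 8752 CPM. Only Cav1 and Cavin2, which build caveolae in many cell types, were 2-fold higher than in Epcam-high cells among its 6 genes. On totals, Kdr, Vwf, Plvap and Angpt2 were within 2-fold of Epcam-high cells and 2-fold lower than in cells without Krt8. The macrophage list without its chosen genes summed to 6137 CPM, 6483 CPM and 9656 CPM, the T cell list to 305 CPM, 543 CPM and 611 CPM, and the neutrophil list to 1189 CPM, 3030 CPM and 1321 CPM. In the Krt8-positive cells without Epcam, the B cell, mast, lymphatic and skeletal muscle lists summed to 41.7, 47.9, 72.7 and 10.1 CPM. No measured gene of these lists other than the excluded ones was without a count there, and no adipocyte gene of the list was on the panel. The part of these cell types in the results was not tested. Epcam-high cells were not chosen for lacking the 5 excluded genes. Against the 20772 of them that lacked these genes, 184 genes were 2-fold higher and 57 lower.

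A set of genes stood above both other EKP groups. Of 461 genes, 41 were at least 2-fold higher than in Epcam-high cells and in cells without Krt8 (8.89%), and 18 of these reached 200 CPM. Under all 5 scalings tried, 10 genes at that level kept both ratios: S100a4, Lrp2, Ptprn2, Bmp2, Cav1, Cavin2, Ppargc1a, Rbp2, Aif1l and S100b. In the RKP section, which the choice of EKP cells did not use, 8 of the 10 were also 2-fold higher than in RKP Epcam-high cells. The exceptions there were Cavin2, at 993 CPM against 1276 CPM, and S100b, at 259 CPM against 528 CPM. All genes with a ratio in both sections were counted too. Of those 2-fold above EKP Epcam-high cells, 71 were 2-fold above in RKP, 10 below and 42 between. Of those within 2-fold in EKP, the numbers were 46, 29 and 121. The RKP cells were chosen by the same rule, and they were not compared with RKP cells without Krt8. Genes on a given side of these limits were chosen by their values, so the 10 are a description.

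Lrp2 had the largest ratio. Its 1720 CPM was 193-fold above Epcam-high cells (157 to 240) and 13.9-fold above cells without Krt8 (11.7 to 16.7). Cubn, the partner with which Lrp2 takes up proteins in the kidney tubule, stood at 188 CPM, 33.6 CPM and 42.8 CPM in the 3 groups. It was 5.60-fold above Epcam-high cells (4.74 to 6.61). Of the 8 kidney and absorptive genes measured, 4 were 2-fold higher than in Epcam-high cells, against 34.7% of all genes, and none was lower. The number higher was 2 with median of ratios. The 2 others of the 4 were Kl and Gc, at 24.0 CPM and 14.7 CPM. Slc22a6, a transporter of the proximal tubule, stood at 6.96 CPM, near the highest negative control probe.

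Bmp2, a secreted growth factor of the bone morphogenetic family, stood at 3816 CPM against 356 CPM in Epcam-high cells and 599 CPM in cells without Krt8. It was 10.7-fold above the former (10.3 to 11.2) and 6.37-fold above the latter (5.86 to 6.93). Ppargc1a, a coactivator of genes for mitochondria, was 20.5-fold above Epcam-high cells (17.4 to 24.2), at 396 CPM against 19.3 CPM. Cav1, the main protein of caveolae, stood at 18661 CPM against 4190 CPM and 4716 CPM. Rbp2, a retinol-binding protein of gut epithelium, stood at 347 CPM against 72.6 CPM and 36.1 CPM. These genes have no shared textbook role, and each is given for its own level.

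Sox2, a transcription factor of stem cells and of the foregut, was high in both kinds of Krt8-positive cell. It stood at 14963 CPM against 7362 CPM in Epcam-high cells and 1058 CPM in cells without Krt8. The first ratio was 2.03-fold (2.00 to 2.06) and fell under 2-fold with counts per cell, median of ratios and totals without Krt8 and Epcam. The second was 14.1-fold. Msln, the surface protein mesothelin, behaved alike at 18787 CPM against 1167 CPM in cells without Krt8, 16.1-fold higher (15.2 to 17.1), and it was within 2-fold of Epcam-high cells. Acan, the proteoglycan aggrecan, lay between the groups at 10734 CPM, with 29572 CPM in Epcam-high cells and 846 CPM in cells without Krt8.

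**Figure D3:**
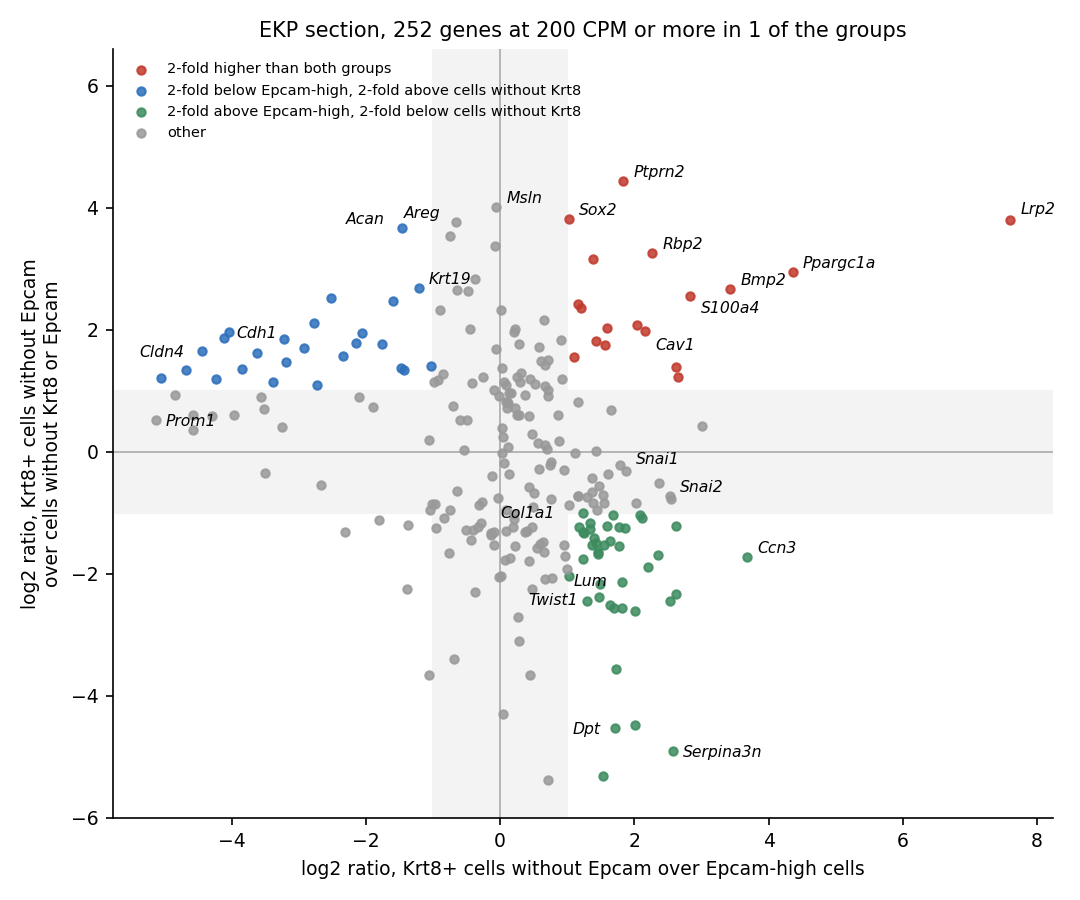
Log2 ratio of the EKP Krt8-positive cells without Epcam over Epcam-high cells (horizontal) and over cells without Krt8 (vertical) for 252 genes, each point 1 gene. The grey bands mark ratios under 2-fold. Red points, such as Lrp2, Ptprn2, S100a4 and Bmp2, lie above both groups; blue points, such as Cdh1, Cldn4 and Krt19, lie between them; green points, such as Lum, Dpt and Twist1, lie above Epcam-high cells and below cells without Krt8.

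The remaining genes fell into fewer patterns. Above Epcam-high cells but 2-fold below cells without Krt8 were 48 genes (10.4%), among them Col1a1, Lum, Dpt, Sfrp1, Mmp2 and Twist1. Above Epcam-high cells and within 2-fold of cells without Krt8 were 71 (15.4%), among them Snai1, Snai2 and Mmp9. Between the groups, 2-fold below Epcam-high cells and 2-fold above cells without Krt8, were 27 (5.86%), among them Cdh1, Cldn4, Krt19 and Acan. Below both were 10 (2.17%), and 5 of them reached 200 CPM: C3, Cybb, F3, Plbd1 and Psmb8. C3, a complement component, stood at 555 CPM against 1162 CPM in Epcam-high cells and 6973 CPM in cells without Krt8. F3, tissue factor, stood at 897 CPM, 2357 CPM and 4266 CPM.

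The neuroendocrine granule genes did not move as a set. Of 10 compared with Epcam-high cells, 3 were 2-fold higher and 2 were lower, with a median of 0.56 that turned to -0.09 with median of ratios. Ptprn2 was 3.56-fold higher (3.31 to 3.83) and Scg5, a chaperone of granule proteins, 4.95-fold higher (4.09 to 5.97) at 139 CPM against 28.1 CPM. Scg2, which forms granules, stood at 85.8 CPM against 569 CPM, 6.63-fold lower (5.50 to 8.07). Snap25, which fuses vesicles with the membrane, stood at 94.3 CPM against 644 CPM, 6.83-fold lower (5.71 to 8.23). Insm1, a neuroendocrine transcription factor, stood at 230 CPM against 425 CPM. Chga, the usual granule marker, stood at 56.4 CPM against 36.6 CPM in Epcam-high cells and 108 CPM in cells without Krt8.

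Against cells without Krt8, 7 of 11 of these genes were 2-fold higher and none was lower, though 1 was lower with median of ratios and with every cell weighted alike. Ptprn2 was 21.8-fold higher (15.9 to 30.6) and Insm1 5.03-fold (3.70 to 6.98). The cells thus held Ptprn2 and Scg5 above both groups, without the Scg2 and Snap25 levels of Epcam-high cells.

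Mki67, Top2a and Cenpf, genes of dividing cells, were above their Epcam-high level under all 5 scalings tried, while Stmn1 was within 2-fold and turned lower with counts per cell and median of ratios. Top2a, a topoisomerase of dividing cells, stood at 6805 CPM against 3043 CPM in Epcam-high cells and 1267 CPM in cells without Krt8. Mki67, which marks cells in cycle, stood at 5392 CPM, 2878 CPM and 1508 CPM. All 4 proliferation genes were 2-fold higher than in cells without Krt8, and 2 of 4 were 2-fold higher than in Epcam-high cells. The latter count was 0 with counts per cell, and also with median of ratios. Of the 4 hypoxia and angiogenesis genes, none was 2-fold apart from Epcam-high cells. Vegfa, the growth factor of blood vessels, came nearest at 11340 CPM against 22551 CPM, 1.99-fold lower (1.96 to 2.02), and passed 2-fold with counts per cell, median of ratios and totals without Krt8 and Epcam.

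Among all cells with 3 or more Krt8 counts and none of the 5 excluded genes, marker levels were lower at each higher Epcam level for S100a4, Lrp2 and Snai2, though over different ranges. In 6 bands of Epcam (0, 1, 2 to 4, 5 to 9, 10 to 19, and 20 or more counts), Lrp2 stood at 1846, 1086, 114, 22.6, 9.70 and 2.00 CPM. S100a4 stood at 30861, 17809, 5946, 4300, 4128 and 3293 CPM in these bands, with most of its fall over the first 3. Snai2 stood at 938, 777, 641, 257, 123 and 79.9 CPM, with most of its fall above 4 counts. Cdh1 rose over the same bands, from 1419 CPM to 3642, 10831, 19295, 23106 and 25037 CPM. Ptprn2 was lowest in the band of 2 to 4 counts, at 171 CPM, and stood at 246 CPM in the band of 20 or more. Col1a1 stood at 43055, 48573, 45901, 27671, 18213 and 12753 CPM in the 6 bands. The part of stromal RNA in these differences was not tested.

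Within the 6040 cells, the amount of Krt8 separated the genes into opposed groups. The cells were divided into those with 3 to 4 Krt8 counts (1981 cells), 5 to 9 (2584) and 10 or more (1475), with median totals of 165, 186 and 266 counts. S100a4 stood at 19075, 27587 and 38825 CPM in this order. Lrp2 stood at 1227, 1774 and 2097 CPM, and Ptprn2 at 407, 810 and 1229 CPM. Bmp2 and Sox2 were also higher in the cells with more Krt8, from 2471 to 4942 CPM and from 9733 to 19537 CPM. The transition factors ran the other way. Snai1 stood at 7480, 6022 and 4716 CPM, Snai2 at 1165, 850 and 760 CPM, and Twist1 at 833, 528 and 240 CPM. The fibroblast list fell alongside them, from a sum of 75867 CPM to 52875 and 37096 CPM, and its part in these differences was not tested. Cdh1 stayed within 1624 to 1933 CPM.

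After thinning to 80 counts, the share of cells with an S100a4 count was 66.8% (64.7 to 68.9) with 3 to 4 Krt8 counts and 91.4% (89.8 to 92.8) with 10 or more. For Ptprn2 these shares were 3.38% (2.63 to 4.28) and 8.54% (7.17 to 10.1). For Twist1 they were 5.40% (4.45 to 6.49) and 2.03% (1.38 to 2.89). The Snai2 shares, 7.02% (5.93 to 8.23) and 5.15% (4.08 to 6.41), overlapped in their intervals.

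**Figure D4:**
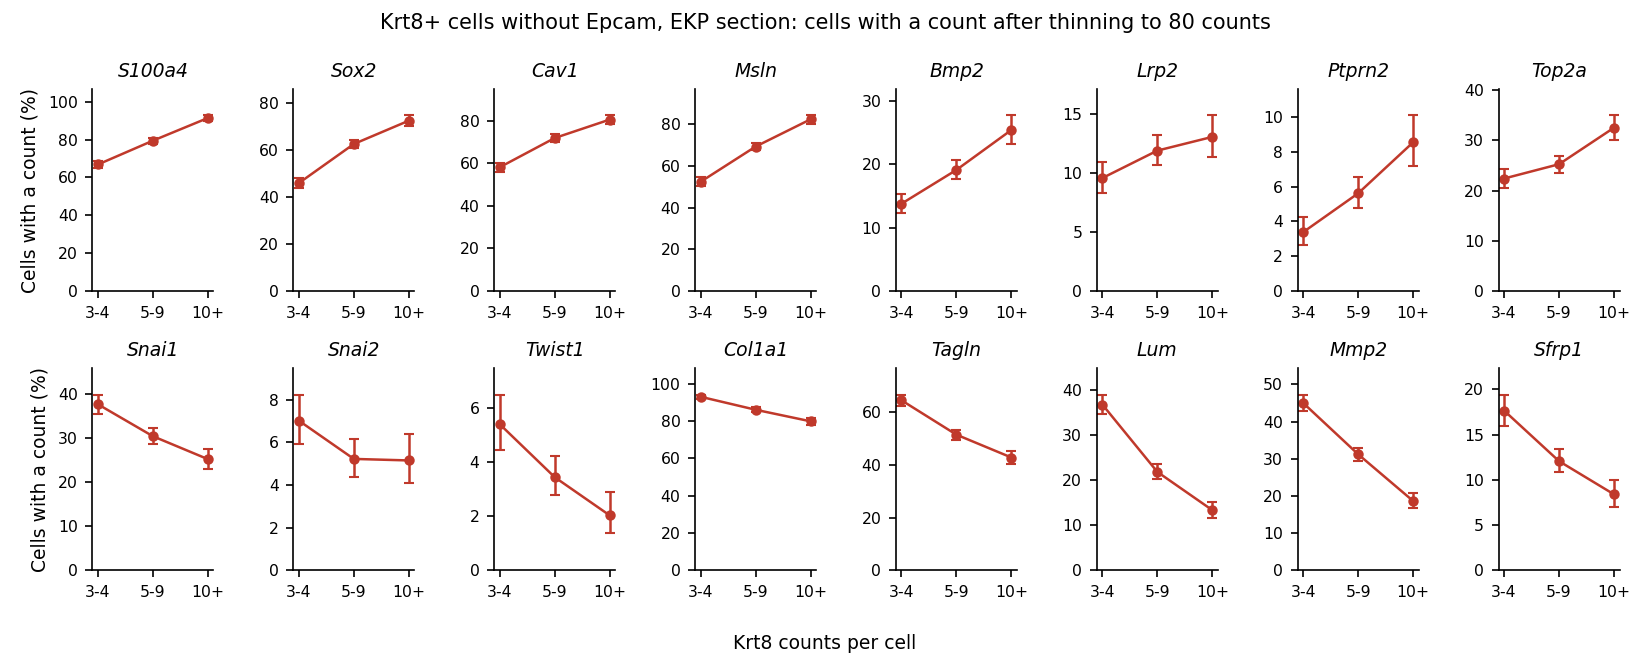
Share of cells (%) with a count of each of 16 genes after every cell was thinned to 80 counts, by Krt8 counts per cell before thinning, in the 6040 EKP cells; bars are 95% Clopper-Pearson intervals (counting error only). The upper 8 genes, with S100a4 going from 66.8% to 91.4%, are more often found in cells with more Krt8, and the lower 8, with Lum going from 36.7% to 13.4%, less often.

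Cells with no count of Lum, Dpt, Col1a1, Acta2 or Tagln were few in all 3 EKP groups. They numbered 31 of the 6040 cells (0.513%), 320 of the 37393 Epcam-high cells and 3 of the 6303 cells without Krt8. The 31 cells had a median of 103 counts and were not free of stromal RNA, with Mmp2 at 889 CPM and a fibroblast list sum of 592 CPM. In these 31 cells S100a4 stood at 22216 CPM, Bmp2 at 3851 CPM, Sox2 at 24882 CPM and Lrp2 at 889 CPM. Against the 320 Epcam-high cells without those genes, the log2 ratio was 3.15 for S100a4, 3.89 for Bmp2, 1.00 for Snai1 and -1.67 for Cdh1. Cdh1 stood at 8590 CPM and Cldn4 at 7405 CPM in the 31 cells, above their levels in all 6040. Lrp2, at 889 CPM against 1720 CPM in all 6040, rests on too few counts in these 31 cells to be called lower. The Snai1 ratio also rests on few counts.

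Clustering the 6040 cells on all genes but the 7 of the choice gave 5 sub-clusters. They are described by their leading genes and were looked at after their values were seen. Sub-cluster 1 (1569 cells) led with Gad1, Col17a1, Krt19 and Ndrg1. It held Krt19 at 44152 CPM, as much as Epcam-high cells, with Ndrg1, a gene induced by low oxygen, at 28490 CPM and Vegfa at 23417 CPM. Its S100a4 stood at 28796 CPM and its Snai2 at 218 CPM. Sub-cluster 2 (1541 cells) led with Cenpf, Mki67 and Top2a, genes of dividing cells, with Top2a at 18031 CPM. Its Lrp2 was the highest of the 5, at 2923 CPM, and its S100a4 stood at 38047 CPM.

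Sub-cluster 3 (1427 cells) led with Nox4, Tbx3, Mmp9 and Lum and had the least Krt8, at a median of 4 counts. It held Lum at 13447 CPM and Col1a1 at 70294 CPM, with S100a4 at 10984 CPM, Lrp2 at 470 CPM and Ptprn2 at 181 CPM. Sub-cluster 4 (1320 cells) led with S100b, Slc34a2 and Tspan8, and held Cp, the copper-binding ceruloplasmin, at 45222 CPM, Snai1 at 9978 CPM and S100a4 at 37753 CPM. Sub-cluster 5 (183 cells) led with Prom1, Cldn7 and Fxyd3. It held Cdh1 at 15679 CPM and Cldn4 at 20233 CPM, with S100a4 at 4741 CPM and Lrp2 at 46.9 CPM. Only 22.4% of its cells had no Epcam count, against 69.4% to 91.6% in the other 4, and its median total was 104 counts.

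S100a4, Lrp2, Ptprn2 and Bmp2 were thus higher in sub-clusters 1, 2 and 4 than in 3 and 5. Snai2 did not follow them, at 218, 1163, 1435, 740 and 141 CPM in sub-clusters 1 to 5. Without sub-clusters 3 and 5, 4430 cells remained. Against Epcam-high cells, 140 genes were then 2-fold higher and 69 lower, in place of 160 and 62.

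**Figure D5:**
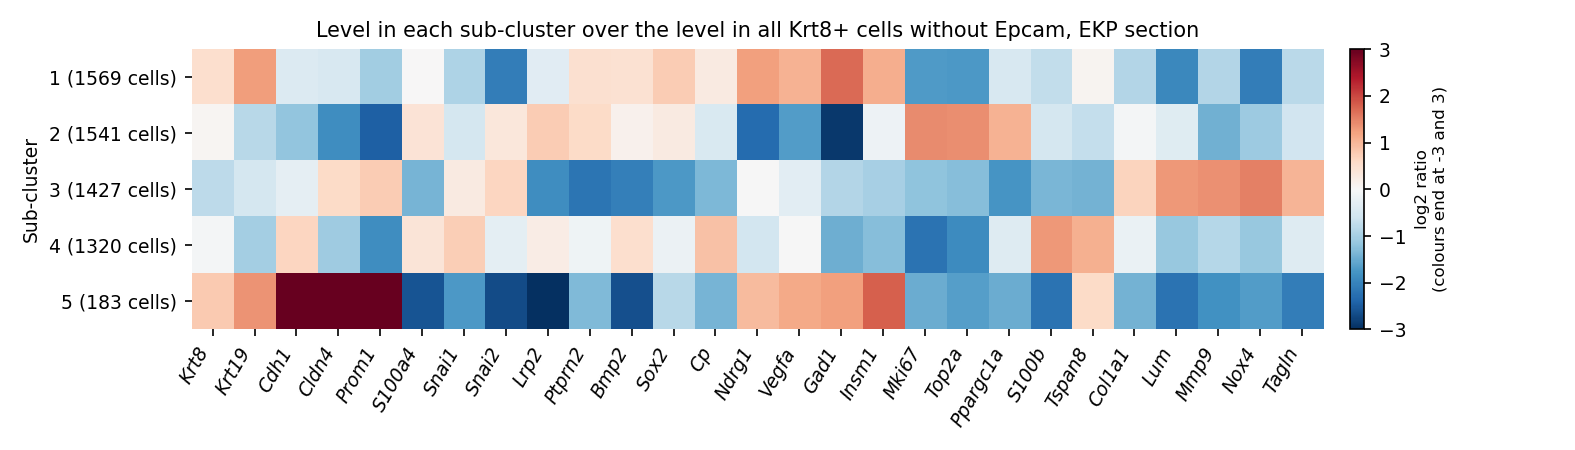
Log2 ratio of the level of 27 genes in each of 5 sub-clusters over their level in all 6040 EKP Krt8-positive cells without Epcam (red above, blue below, colours end at -3 and 3). The genes were picked after their values were seen. Mki67 and Top2a are highest in sub-cluster 2, Lum, Mmp9 and Nox4 in sub-cluster 3, and Cdh1, Cldn4 and Prom1 in sub-cluster 5.

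Pairs of genes were counted in the same thinned cells. Lrp2 and Top2a were found together in 265 of the 6040 cells, where the product of their shares gives 180, a ratio of 1.47. Lrp2 and Ptprn2 had a ratio of 1.37, while Lrp2 and Bmp2 were found together less often than the product, at 0.811. Lrp2 and Cdh1 were found together in 45 cells where 86.0 were given by the product, a ratio of 0.52, and for Ptprn2 and Cdh1 the ratio was 0.50. Snai2 went with Lum at a ratio of 1.41 and with Mki67 at 1.404, so Lum was not a particular partner of Snai2. Ptprn2 was found with Lum less often than the product, at 0.56. The pairs named are only a part of those counted. These are descriptions of cells from 1 section, which share a place and a library.

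The cells were unevenly placed in the file. Positions in the tissue were not analysed here, and the order of cells in the file may or may not follow them. Over 10 successive parts of the EKP file the share of cells with 80 or more counts that met the choice ran from 0.466% to 14.0%. The fifth, sixth and ninth parts held 4318 of the 6040 cells (71.5%) and 2541 of the 37393 Epcam-high cells (6.80%). Within those 3 parts alone, 99 genes were 2-fold higher than in Epcam-high cells and 63 lower.

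Most marker levels held across the parts. Snai1, Snai2 and Twist1 were 2-fold above the Epcam-high cells of the same part in 10 of 10 parts, with log2 ratios of 1.64 to 2.13 for Snai1. S100a4 was 2-fold above in 9 of 10 parts and Lrp2 in the 9 parts where a ratio could be taken. Ptprn2 was 2-fold above in 5 of 9. Cdh1 was 2-fold below in all 10, with log2 ratios from -4.90 to -1.68. The first part stood apart with 87 cells. There S100a4 stood at 1425 CPM, below the Epcam-high cells of that part (log2 ratio -0.97), Bmp2 at 143 CPM, and Lrp2 had no count. Its fibroblast list summed to 73750 CPM. In the sixth part, with 1864 of the cells, the log2 ratios were 2.33 for Snai2, 2.02 for Snai1 and 1.82 for Twist1. In that part they were 0.43 for Lum, 0.25 for Dpt, 0.93 for Col1a1, 1.52 for Mmp2 and 2.62 for Sfrp1. The reason for this spread was not tested.

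The RKP cells chosen in the same way shared much of this profile. Their S100a4 stood at 45732 CPM against 2479 CPM in RKP Epcam-high cells, 18.4-fold higher (18.2 to 18.7). Lrp2 stood at 384 CPM against 6.06 CPM, 63.4-fold higher (51.2 to 79.1), and Ptprn2 at 204 CPM against 3.86 CPM, 52.9-fold higher (40.3 to 70.4). Snai2 was 7.56-fold higher and Bmp2 10.7-fold higher in that section, and Cdh1 was 15.5-fold lower. Of the genes at least 2-fold higher in EKP with a ratio in both sections, 71 were 2-fold higher in RKP, 10 were 2-fold lower and 42 were between. Of the genes at least 2-fold lower in EKP, 47 were 2-fold lower in RKP, 2 were higher and 12 were between. Of the genes within 2-fold in EKP, 46 were 2-fold higher in RKP, 29 were lower and 121 were between.

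Set side by side, EKP and RKP cells of this kind differed in many genes. Of 457 compared, 123 were 2-fold higher in EKP (26.9%) and 76 were 2-fold lower (16.6%), with a median log2 ratio of 0.33. Counts per cell gave 148 and 58 (median 0.55), and median of ratios gave 108 and 83 (median 0.28). With 1 section per line, these are differences between sections. Lrp2 was 4.48-fold higher in EKP (4.08 to 4.93) and Ptprn2 4.05-fold (3.55 to 4.62). S100a4 was 1.59-fold lower in EKP (1.57 to 1.61) and Snai2 1.53-fold lower (1.42 to 1.64). Krt19 stood at 18652 CPM in EKP and 3812 CPM in RKP, 4.89-fold higher (4.75 to 5.04). Krt8 stood at 34569 and 32729 CPM, which is no result because the choice used it. After thinning, a Krt19 count was found in 65.2% of the EKP cells and 20.5% of the RKP cells.

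Of 5 growth signal genes, 4 were 2-fold lower in EKP, against 16.6% of all genes, and none was higher, with a median of -2.15 against 0.33 over all genes. Ptn, the heparin-binding growth factor pleiotrophin, stood at 478 CPM in EKP and 12012 CPM in RKP, 25.1-fold lower (23.2 to 27.3). Hey1, a target of Notch signalling, stood at 262 CPM and 3754 CPM, 14.3-fold lower. Areg, a ligand of the EGF receptor, stood at 3683 CPM and 16335 CPM, and Egfr at 2899 CPM and 9775 CPM. The fifth gene, Bmp2, stood at 3816 CPM and 4985 CPM. Ppargc1a was 4.97-fold lower in EKP (4.52 to 5.48).

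Of 7 smooth muscle and pericyte genes, 5 were 2-fold higher in EKP, against 26.9% of all genes, and none was lower. Tagln, an actin-binding protein, stood at 15978 CPM and 3247 CPM, 4.92-fold higher (4.77 to 5.08), and Cnn1 was 5.25-fold higher. Acta2 stood at 28822 CPM and 20458 CPM. Of 10 neuroendocrine genes, 6 were 2-fold higher in EKP (5 with median of ratios), also against 26.9%, among them Gad1 at 120 CPM and 19.7 CPM. Scg2, at 85.8 and 150 CPM, and Insm1, at 230 and 294 CPM, stood lower in EKP. Acan stood at 10734 CPM and 1758 CPM, 6.11-fold higher (5.85 to 6.37), and Hp, a plasma haemoglobin scavenger, was 9.44-fold higher (8.45 to 10.6). The fibroblast list summed to 54448 CPM in EKP and 25701 CPM in RKP, and the macrophage list to 6137 CPM and 13720 CPM; their part in these differences was not tested. Of the 4 proliferation genes none was 2-fold apart, with a median of -0.36.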

How the data were processed

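RNA was measured with Xenium in 1 EKP and 1 RKP tumour section, grouped by their titles. The authors deposited raw transcript counts per gene and cell, with no normalization. Seurat 4.4.0 appears in the submitters' processing notes without a role. Not given in the sources used here were the genome build, the segmentation, any quality limit on transcripts and cell positions.

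The cells and gene lists were chosen with earlier results of these data known. Counts were summed per group and scaled to 1000000 gene counts. A gene was kept when its sum exceeded the group's highest negative control probe (and was at least 3) in at least 1 group. A group at or below that level was given the level, which makes the fold a lower bound, and a gene whose stand-in exceeded the other group's value got no ratio. Such genes numbered 4, 3 and 14 in the comparisons with Epcam-high cells, cells without Krt8 and RKP. Intervals are 95%, exact conditional binomial for ratios and Clopper-Pearson for shares. They cover counting error only, and cells of 1 section are not replicates. Median-of-ratios scaling divides by the median ratio over kept genes above the control level in both groups, without the 7 genes of the choice. In the comparison with RKP, 89 of the 457 genes were not above that level in both groups.

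For each comparison the text draws on the 12 genes furthest apart in each direction at 200 CPM or more, the epithelial, mesenchymal and neuroendocrine lists, the chosen and marker genes, and up to 5 genes of each other list. Other genes, and the sub-clusters with their genes, were named after their values were seen. For sub-clusters, counts were scaled, log-transformed, reduced to 20 principal components, joined to 15 neighbours and clustered by Leiden at resolution 0.5. Doublets were not called. Cells were thinned to 80 counts with a fixed seed. The comparison step was tested on simulated data. Alternatives were other scalings, background subtraction, no filter, other depths and limits, cells without stromal counts, parts of the file and 1000 CPM. Added after seeing the data were leaving out sub-clusters 3 and 5, and using the 3 file parts with most of the cells. Python 3.11.15, numpy 2.4.6, scipy 1.17.1, scikit-learn 1.9.0, igraph 0.11.9, leidenalg 0.10.2 and matplotlib 3.10.9 were used. A gene counted in the mesenchymal list is not reported here by name.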

Additional observations from a re-analysis of the deposited data

Results flagged for a closer look

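For 6 genes the Krt8-positive cells without Epcam stood at least 2-fold on opposite sides of the Epcam-high cells in the 2 sections. The difference was not tested, since there is 1 section per line, and the values are log2 ratios from totals. Scg2, which forms secretory granules, was at -2.73 in EKP and 2.68 in RKP. Krt79, a keratin of skin appendages, was at -2.34 in EKP and 2.16 in RKP. S100b, a calcium-binding protein, was at 2.62 in EKP and -1.03 in RKP. Tm4sf4 was at 1.21 in EKP and -2.30 in RKP, Muc3a at 1.04 and -3.19, and Ctla2a at 1.02 and -1.13. With counts per cell or median of ratios, the EKP ratios of Tm4sf4, Muc3a and Ctla2a are under 2-fold.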

How the results depend on the processing

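Against Epcam-high cells, the 160 higher and 62 lower genes became 89 higher with counts per cell, 48 higher and 103 lower with median of ratios, 28 lower with the choice made on thinned counts, 33 higher and 19 lower in cells without fibroblast or smooth muscle counts, 51 higher and 28 lower at 1000 CPM, and 99 higher in the 3 file parts with most of the cells, an alternative added after seeing the data. Against cells without Krt8, the 116 higher and 121 lower became 74 lower with counts per cell, and 48 higher and 56 lower at 1000 CPM. Against RKP, the 123 higher and 76 lower became 26 higher and 32 lower without fibroblast or smooth muscle counts, and 33 higher and 26 lower at 1000 CPM. The stromal filter left 31 EKP cells and gave no ratio for 133 and 86 genes, and the 1000 CPM limit compares fewer genes; the cause of the other changes was not tested. It was not run against cells without Krt8, of which 3 were left. All other alternatives kept these counts within 1.5 times.

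The 4.54% share of EKP cells was 4.76 with 160 or more counts, 5.10 on thinned counts, 3.05 with 5 or more Krt8 counts, 3.76 with no Epcam count, 4.04 without stromal counts, and 2.95 and 6.18 in the first and the second part of the file cut at its middle. In the same order the 19.5% share in EKP was 17.1, 22.9, 15.2, 16.2, 8.76, 11.9 and 28.6, and the 17.8% share in RKP was 14.2, 22.2, 12.6, 14.4, 11.9, 14.3 and 20.9. None of the named genes changed sign past 2-fold under the alternatives run, but many of their ratios left the interval of the main setting. Against Epcam-high cells 309 such values lay outside that interval and 209 inside. The numbers were 194 and 274 against cells without Krt8, and 215 and 306 against RKP. For S100a4, the log2 ratio over Epcam-high cells went from 2.83 on totals to 2.18 with median of ratios. No paired analysis was possible because each line has 1 section.

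Depth limits rare RNAs: the median cell of 197 counts cannot show whether a cell without an Lrp2 or Snai2 count lacks that RNA, and with 1 section per line no spread between tumours was measured.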

Other observations

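Egfr, the receptor for Areg, stood at 2899 CPM in the EKP cells, 2754 CPM in EKP Epcam-high cells and 9940 CPM in cells without Krt8. Of the p53 pathway genes, Trp53 stood at 1422 CPM, 844 CPM and 2422 CPM in these groups, and Cdkn1a, a cell-cycle inhibitor, at 5426 CPM, 7847 CPM and 5338 CPM. Mdm2 and Bax stood at 5749 CPM and 5640 CPM in the EKP cells, within 2-fold of both other groups. Psmb8, an immunoproteasome subunit, stood at 380 CPM in the EKP cells against 1888 CPM in Epcam-high cells and 2798 CPM in the RKP cells, 7.37-fold lower than the latter (6.71 to 8.11). Hp stood at 2368 CPM in the EKP cells and 7884 CPM in cells without Krt8.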
